A study of Mus musculus with 11 samples.

Results

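Amino acid, sugar and organic ion transporters of 9 solute carrier (SLC) families were followed across healthy and fibrotic kidneys and lungs of the mouse. A gene was included when its symbol in the platform annotation was Slc1a, Slc2a, Slc3a, Slc5a, Slc6a, Slc7a, Slc13a, Slc22a or Slc34a followed by a number and nothing else, and when 2 or more arrays detected 1 of its probes, at a detection p-value below 0.05. Of the 90 genes that carried such a symbol, 77 passed, among 12865 genes tested in all. They were 7 Slc1, 9 Slc2, 1 Slc3, 10 Slc5, 12 Slc6, 12 Slc7, 4 Slc13, 19 Slc22 and 3 Slc34 genes. The 13 that did not pass were Slc2a5, Slc2a12, Slc5a7, Slc6a5, Slc6a7, Slc6a11, Slc6a14, Slc6a21, Slc7a14, Slc7a15, Slc13a5, Slc22a16 and Slc22a29, of which Slc22a16 was detected on 1 array and the others on 0. Slc3a1 and Slc7a5 were not analysed here.

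Whole-organ RNA was measured on 11 Illumina bead arrays, from BALB/C mice labelled adult and, without exception, female. The 3 healthy kidneys and 3 healthy lungs came from mice described as healthy. Beside them stood 2 fibrotic kidneys and 3 fibrotic lungs; the labels' protocol names unilateral ureter obstruction (UUO), in which one ureter is closed, and bleomycin, an antitumour drug toxic to lung epithelium, given into the trachea. No time after surgery or injection is given in the labels, and no sham-operated or vehicle-treated group is among the samples, so the operation itself and the injury cannot be told apart. The titles give the healthy kidneys and lungs to the same 3 mice, while the descriptions number a separate mouse for each array. Nothing else says whether arrays of a group are separate animals, so the p-values measure the spread between these arrays.

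Solute carriers move small molecules across membranes, many of them by coupling the uphill entry of a solute to sodium or protons. In the kidney, the proximal tubule recovers glucose, amino acids, phosphate, sulfate and carboxylates from the filtrate through carriers in its apical (urine-facing) membrane and hands them to the blood through carriers in its basolateral membrane. The same cells draw drugs, toxins and metabolites out of the blood with the organic anion and cation carriers of the Slc22 family, while the lung is known for taking phosphate back from surfactant through Slc34a2 and for amino acid carriers of its epithelium and macrophages.

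Levels are log2 of background-corrected, quantile-normalised intensity, whose lowest detected probe stood at 4.84 to 5.40 depending on the array, and differ between probes for technical reasons, so they were compared between arrays and not between genes. A change is a difference of log2 means with the SE of limma's fit over all 11 arrays, and a gene was called higher or lower at a Benjamini-Hochberg adjusted p under 0.05 over all 12865 genes. Per array, 17036 to 21504 probes were detected, and 40 to 63 of the 77 carriers. Because whole organs were measured, fewer cells of a type and less RNA per cell cannot be told apart in any value below. Precision is limited by how few arrays there are, above all by the 2 obstructed kidneys.

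Several libraries went against their labels or carried transcripts of other tissues. Xist, transcribed from the inactive X chromosome of female cells, was at 4.48, 4.41 and 4.74 in healthy and 10.83 and 10.56 in fibrotic kidneys. Its lung levels were 4.38, 4.33 and 4.33 without and 5.61, 4.37 and 9.03 with fibrosis. The Y-linked Eif2s3y ran the other way, at 9.41, 9.28 and 9.06, 4.42 and 4.40, 9.41, 9.75 and 9.45 and 9.78, 9.76 and 4.44 in the same order. Both healthy groups and fibrotic lungs 1 and 2 therefore had transcripts of the Y chromosome, against the label, and in kidney every difference between healthy and fibrotic was also a difference between libraries with and without them. Healthy lung 3 held 6 of 6 liver markers (summed level 16.45, with the other lungs between 7.28 and 7.56), the healthy kidneys held 5 or 6 of them (11.71 to 12.89) and the fibrotic kidneys 1 or 2 (9.31 and 10.05). Heart muscle markers had summed levels of 13.78, 15.33 and 9.40 in healthy lungs 1, 2 and 3 and of 11.17 to 12.97 in the fibrotic lungs. Fibrotic lung 1 held the kidney transcript Umod at 9.20, and both fibrotic kidneys held the club cell transcript Scgb1a1 at 12.48 and 11.35, against 4.52, 4.50 and 4.37 in the healthy kidneys. The defining proximal tubule markers were present in all kidneys, with summed levels of 16.18 to 16.27 in the healthy ones and 15.76 and 14.89 in fibrotic kidneys 1 and 2, and alveolar type 2 markers were present in all lungs.

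**Figure D1:**
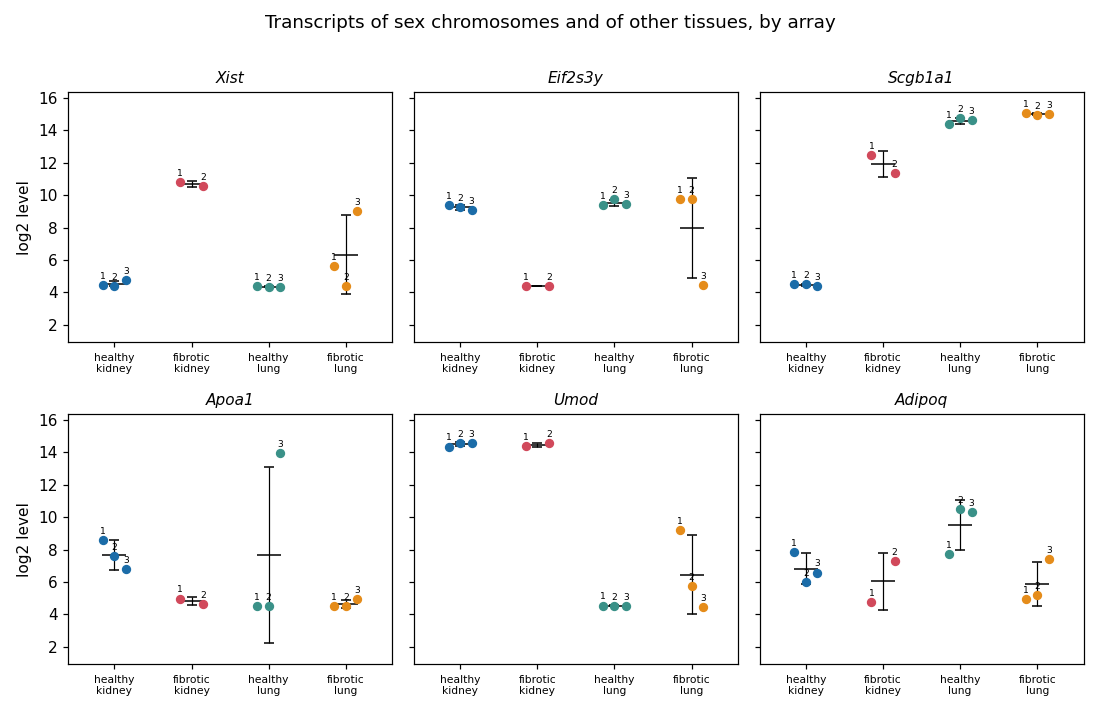
Levels (log2, vertical axis) of 6 transcripts on each array, by group (horizontal axis); numbers are replicates, and the bar and whiskers are the group mean and SD. Xist is high on both fibrotic kidneys and fibrotic lung 3 and Eif2s3y is at background on the same 3 arrays, Apoa1 (liver) is high in healthy lung 3, Umod (kidney) in fibrotic lung 1, and Scgb1a1 (club cell) in both fibrotic kidneys.

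In the healthy organs 47 of the 77 were higher in kidney and 12 in lung, 76.6% against 61.6% of all genes tested (28.2% higher in kidney, 33.5% higher in lung). The members' median difference was 1.95, that of all genes -0.09. All 18 tested genes of the apical tubule list and 10 of the 11 of the basolateral list were higher in kidney, as were 15 of 19 Slc22 and 9 of 10 Slc5 genes. Arrays of the healthy organs did not overlap for 47 carriers that lay higher in kidney and 18 that lay higher in lung, against 31.9% and 37.8% of all genes. Probes of 23 carriers were detected on all 11 arrays. A further 12 were detected on all kidneys and no lung (Slc5a2, Slc5a3, Slc5a11, Slc5a12, Slc6a17, Slc7a12, Slc22a2, Slc22a6, Slc22a8, Slc22a12, Slc22a19 and Slc34a3), and 2 on all lungs and no kidney (Slc6a2 and Slc7a10).

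The kidney phosphate carrier Slc34a1, which reclaims phosphate at the apical tubule membrane, was at 15.12, 15.12 and 15.04 in the healthy kidneys and 6.62, 4.47 and 4.93 in the healthy lungs, where it was detected on 1 of 3. Slc22a6 (OAT1), which takes organic anions such as drugs up from the blood, was not above background in any healthy lung and was at least 336-fold higher in kidney (adjusted p = 1.97e-09). The apical fructose and mannose carrier Slc5a10 was at least 84.8-fold higher there (adjusted p = 2.83e-09). On the lung side stood Slc34a2, the phosphate carrier of alveolar type 2 cells, with 11.08, 10.91 and 10.57 in the healthy lungs and at least 46.4-fold above the healthy kidneys (adjusted p = 2.69e-07). Slc7a10 (asc-1), an exchanger of small neutral amino acids, was at least 18.7-fold higher in lung (adjusted p = 3.5e-08), and Slc6a2, the noradrenaline carrier, at least 16.4-fold (adjusted p = 9.24e-07). The glutamate carrier Slc1a3 and the glucose carrier Slc2a3 were also higher in lung, with kidney minus lung differences of -3.56 ± 0.28 (adjusted p = 1.73e-06) and -3.09 ± 0.46 (adjusted p = 0.000191). Slc2a2, Slc6a13, Slc22a28 and Slc22a30 were at background in healthy lungs 1 and 2 but at 8.14, 9.06, 6.90 and 7.08 in healthy lung 3, the library with liver transcripts; the part of those transcripts in the values was not tested.

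**Figure D2:**
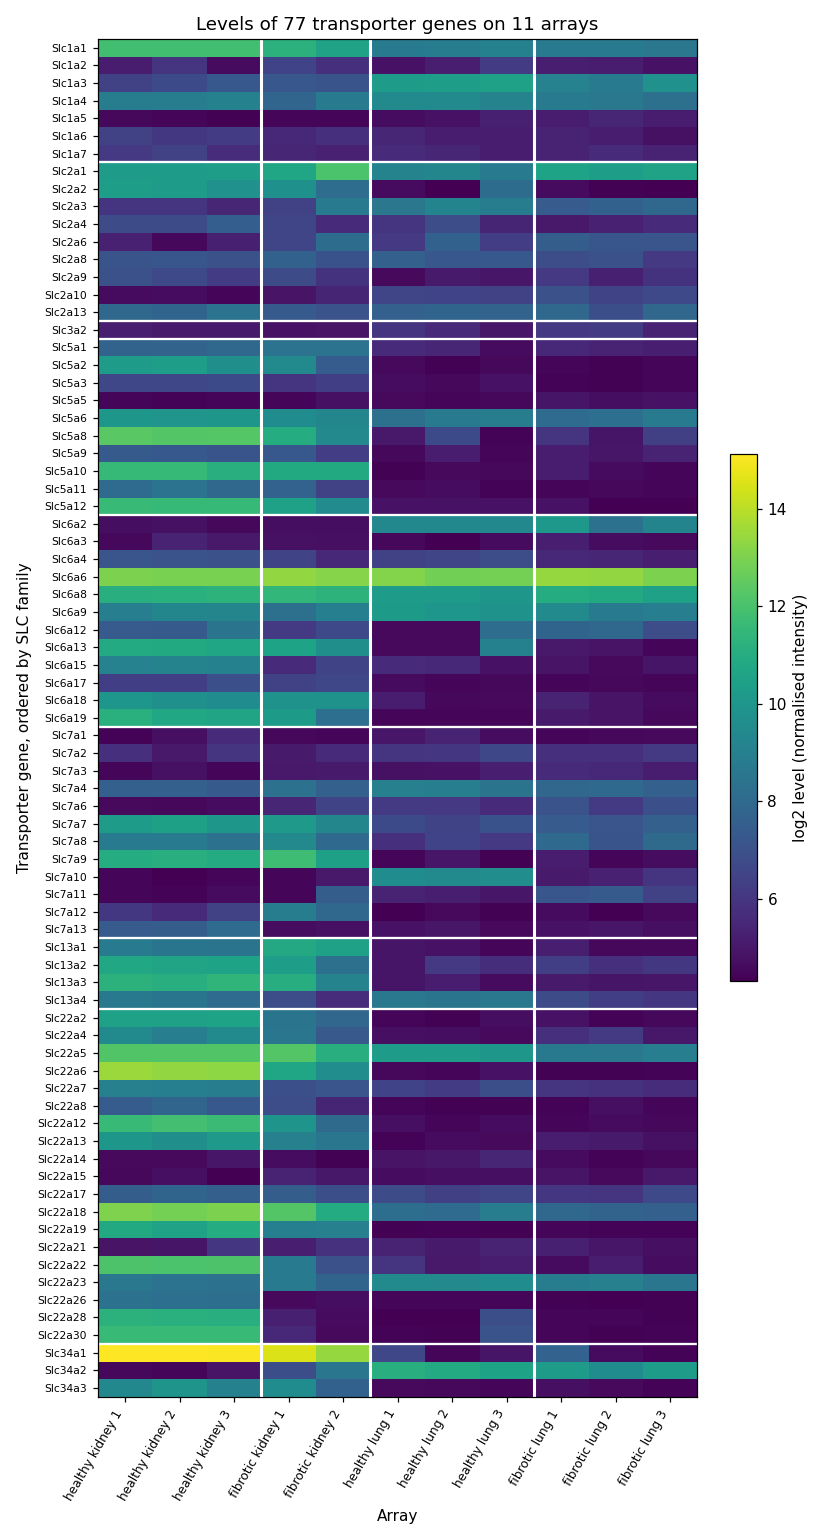
Level (colour, log2) of each of the 77 carriers (rows, by family, separated by white lines) on each of the 11 arrays (columns). Most rows of the Slc5 and Slc22 blocks are brighter in the 5 kidneys than in the 6 lungs (9 of 10 and 15 of 19 were called higher in healthy kidney), and 13 Slc22 rows are darker in the fibrotic than in the healthy kidneys.

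In the obstructed kidney the carriers were lower more often than higher. Of the 77, 9 were higher and 27 lower, 46.8% against 38.8% of all genes tested (23.2% higher and 15.6% lower). The members' median change was -0.51, that of all genes 0.10. Arrays did not overlap between the groups for 15 carriers that lay higher and 39 that lay lower, where 35.4% and 25.2% of all genes did the same. By family, 13 of 19 Slc22 genes were lower and 1 higher, 5 of 10 Slc5 genes were lower and 0 higher, 3 of 7 Slc1 (Slc1a1, Slc1a6 and Slc1a7) and 3 of 12 Slc6 genes were lower and 0 higher, while 4 of 9 Slc2 genes were higher and 1 lower. The calls of 3 of the 9 higher genes (Slc7a12, Slc13a1 and Slc34a2) and 15 of the 27 lower genes were kept whichever of the 11 arrays was left out. In fibrotic kidney 2, 51 of the 77 carriers lay below their level in fibrotic kidney 1, against 6559 of all 12865 genes, and the members' median change was -0.27 in replicate 1 and -0.73 in replicate 2.

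In the fibrotic lung 6 carriers were higher and 12 lower, 23.4% against 37.8% of all genes tested (18.9% in each direction), and the members' median change was -0.05, that of all genes -0.03. Arrays did not overlap for 11 carriers that lay higher and 19 that lay lower, against 26.1% and 26.8% of all genes. The split of the lung calls depended on the scaling. Scaled to a common median, where the median of all genes moved to 0.20, 12 were higher and 6 lower; on the authors' processed intensities, where it moved to 0.48, 19 were higher and 4 lower. In kidney the same settings moved the median of all genes to 0.27 and -0.24 and gave 10 higher and 20 lower, and 5 higher and 36 lower. Relative to the median of all genes, each of the 36 kidney calls and 18 lung calls kept its sign under both scalings and without background correction. That check took only genes already called, on the same arrays, so it could hardly come out otherwise and is no separate support for the calls. Of the carriers called in either organ, 5 were called in both, 13.9% of the kidney calls and 27.8% of the lung calls; among all genes, 2144 were called in both, 43% and 44.1% of the 2 lists.
Fitted on the arrays of 1 organ alone, 11 of the 36 kidney calls were lost (Slc1a6, Slc1a7, Slc2a1, Slc2a3, Slc2a10, Slc5a2, Slc5a3, Slc5a11, Slc6a19, Slc22a8 and Slc22a15, adjusted p of 0.0567 to 0.0917) and 3 were gained (Slc5a1, Slc5a6 and Slc6a12, 0.0385 to 0.0471). Of the 18 lung calls 1 was lost (Slc2a8, adjusted p = 0.0582) and 4 were gained (Slc2a3, Slc7a7, Slc22a13 and Slc34a2, 0.00477 to 0.0382).

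**Figure D3:**
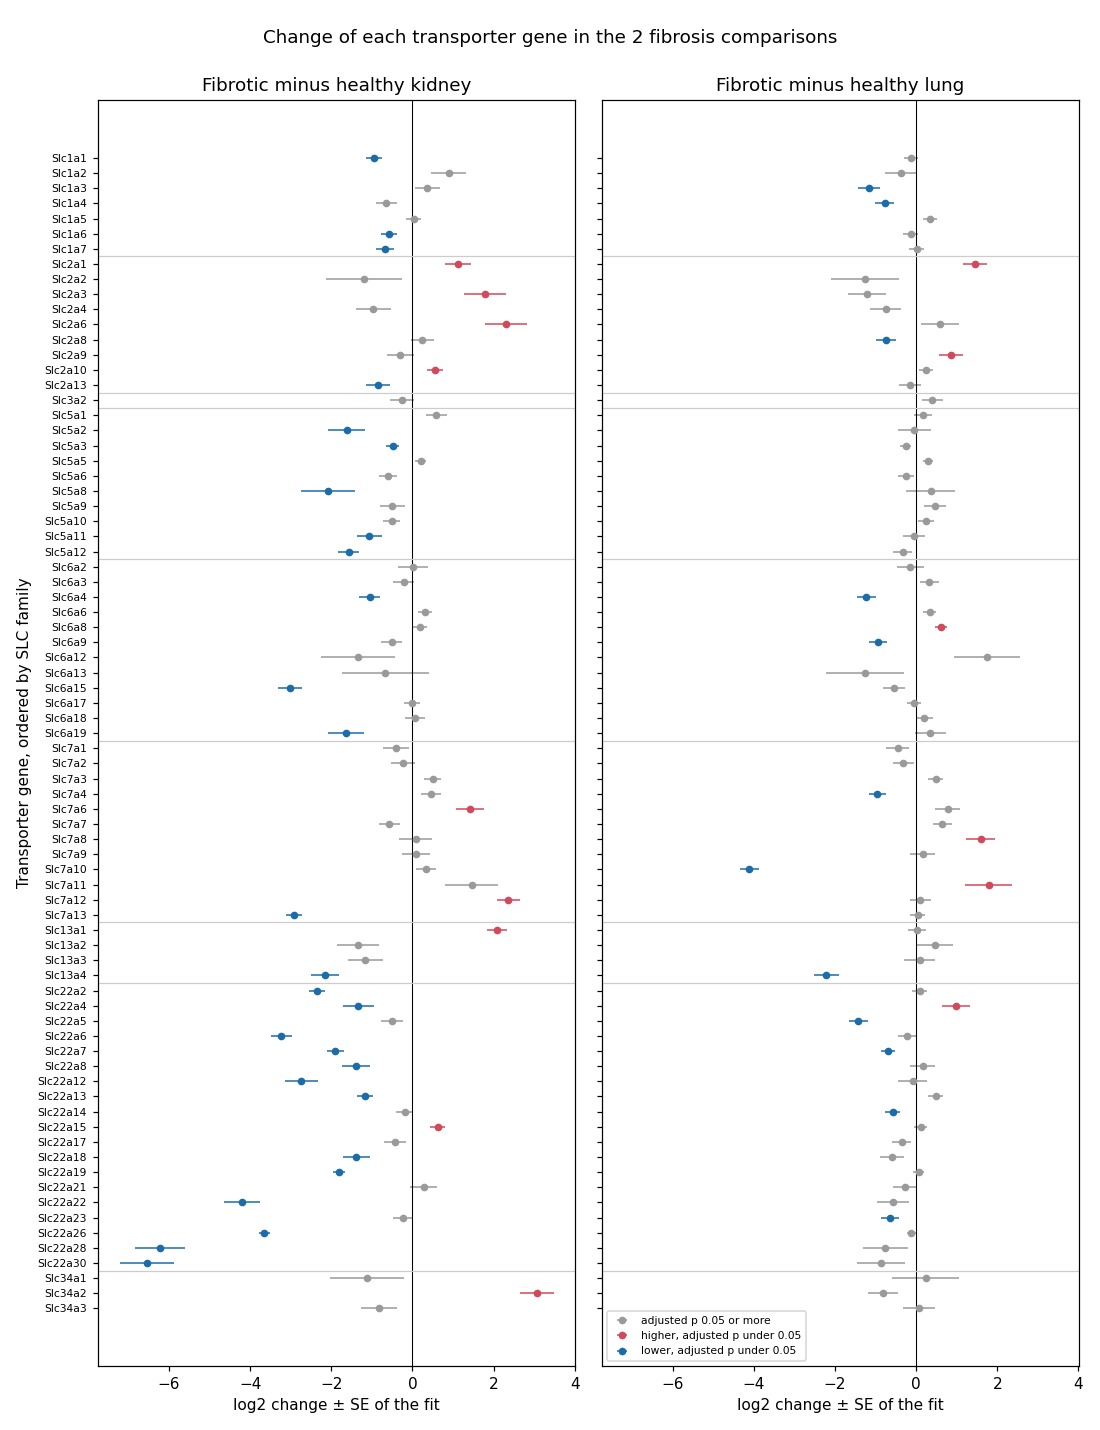
Change of each carrier (log2, horizontal axis, dot with the SE of the fit) in fibrotic against healthy kidney (left) and lung (right), in family order; red and blue mark adjusted p under 0.05. Of the blue dots in the kidney panel 13 are Slc22 genes, down to -6.56 for Slc22a30, while in lung the farthest dot is Slc7a10 at -4.11.

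Of the 19 organic ion carriers of the Slc22 family, 13 were lower in the obstructed kidney, and the falls of over 4 on the log2 scale were all theirs (Slc22a22, Slc22a28 and Slc22a30). In RefSeq's GRCm38.p6 gene table, Slc22a19, Slc22a26, Slc22a27, Slc22a28, Slc22a29, Slc22a30, Slc22a8 and Slc22a6 follow one another on chromosome 19 with no other protein-coding gene between them. All 6 of these 8 that were tested were lower in the obstructed kidney, where 15.6% of all genes were lower. Slc22a6 and Slc22a8 (OAT3) are the main basolateral organic anion uptake carriers, and the rest are rodent relatives of the same family. The promoter windows of Slc22a6 and Slc22a8 are shown because these carriers head the uptake of organic anions from blood, and those of Slc22a28 and Slc22a30 because they are near copies of each other. Each is read 5′ to 3′ on the gene's strand, from 250 bases before to 50 bases after the start, from RefSeq on GRCm38.p6. Capitals mark GTTAAT, the core of the site of the tubule and liver factor HNF1, searched on both strands.
Slc22a6 (chr19:8617746-8618045, plus strand): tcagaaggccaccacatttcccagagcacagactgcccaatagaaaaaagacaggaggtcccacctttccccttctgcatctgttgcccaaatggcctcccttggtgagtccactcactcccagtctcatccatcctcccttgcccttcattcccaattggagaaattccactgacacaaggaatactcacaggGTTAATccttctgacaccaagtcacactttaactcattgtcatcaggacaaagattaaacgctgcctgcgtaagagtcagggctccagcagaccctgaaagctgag
Slc22a8 (chr19:8592932-8593231, plus strand): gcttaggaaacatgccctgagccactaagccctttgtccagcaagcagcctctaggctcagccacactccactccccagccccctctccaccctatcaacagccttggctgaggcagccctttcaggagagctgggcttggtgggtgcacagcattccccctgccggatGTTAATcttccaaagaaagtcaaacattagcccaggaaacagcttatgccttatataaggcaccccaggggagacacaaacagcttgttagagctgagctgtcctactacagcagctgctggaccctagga
Slc22a28 (chr19:8131933-8132232, minus strand): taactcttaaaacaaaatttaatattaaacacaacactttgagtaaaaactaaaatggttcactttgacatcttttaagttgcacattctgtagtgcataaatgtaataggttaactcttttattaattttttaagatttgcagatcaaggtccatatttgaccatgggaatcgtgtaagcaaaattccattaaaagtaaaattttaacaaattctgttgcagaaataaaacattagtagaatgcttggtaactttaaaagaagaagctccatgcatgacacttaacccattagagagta
Slc22a30 (chr19:8405056-8405355, minus strand): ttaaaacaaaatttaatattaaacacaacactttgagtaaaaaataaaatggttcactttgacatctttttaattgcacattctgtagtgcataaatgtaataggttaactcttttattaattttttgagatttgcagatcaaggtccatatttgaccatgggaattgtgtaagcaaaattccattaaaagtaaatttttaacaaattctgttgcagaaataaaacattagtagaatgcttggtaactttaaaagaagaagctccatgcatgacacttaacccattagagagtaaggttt
The match begins at position -56 from the start in Slc22a6 and at -81 in Slc22a8, and Slc22a28 and Slc22a30 hold 0 matches. The same 6 letters stand in 7.1% of 32851 promoter windows of this length and in those of 6 of the 58 carriers that have one. The windows of Slc22a28 and Slc22a30 were identical in 288 of 306 aligned columns (94.1%), where the other pairs of the run shared 45.6% to 64.1%. Probes of such close copies can take up each other's transcripts.

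Slc22a6 stood at 13.48, 13.38 and 13.26 in the healthy kidneys and at 10.65 and 9.62 in the fibrotic ones, a change of -3.23 ± 0.25 (adjusted p = 1.48e-05). Its second passing probe changed by -3.49. The groups did not overlap, and fibrotic kidney 2 was the lower of the pair.
Slc22a8 went from 7.44, 7.83 and 7.29 to 6.85 and 5.42, a change of -1.39 ± 0.34 (adjusted p = 0.0089), which was -0.67 (adjusted p = 0.0549) without fibrotic kidney 2 and -2.10 without fibrotic kidney 1. Slc22a28 fell from 11.26, 11.16 and 11.10 to 5.28 and 4.62, a change of -6.22 ± 0.63 (adjusted p = 5.83e-05), and Slc22a30 from 11.63, 11.59 and 11.57 to 5.51 and 4.57, a change of -6.56 ± 0.67 (adjusted p = 6.19e-05). Both were detected on 1 of the 2 fibrotic kidneys, replicate 1, and were close to background there.
Slc22a26 was at 8.39, 8.24 and 8.22 in the healthy kidneys and not above background in either fibrotic kidney, at least 9.05-fold lower (adjusted p = 2.45e-07). Slc22a19, another organic anion carrier of the run, named here for its place in it, went from 10.86, 10.55 and 10.98 to 8.95 and 9.03 and changed by -1.80 ± 0.15 (adjusted p = 2.05e-05).
In all 6 the healthy kidneys lay above both fibrotic ones. The liver also makes some Slc22 transcripts, and the liver markers moved the same way (5 or 6 of 6 detected in the healthy kidneys, 1 or 2 in the fibrotic). Healthy lung 3, with the highest liver sum, held Slc22a28 and Slc22a30 at 6.90 and 7.08. The part of liver transcripts in the kidney values was not tested. The loss of Y-linked transcripts moved with every one of these falls, and obstruction and the sex of the libraries cannot be told apart.

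**Figure D4:**
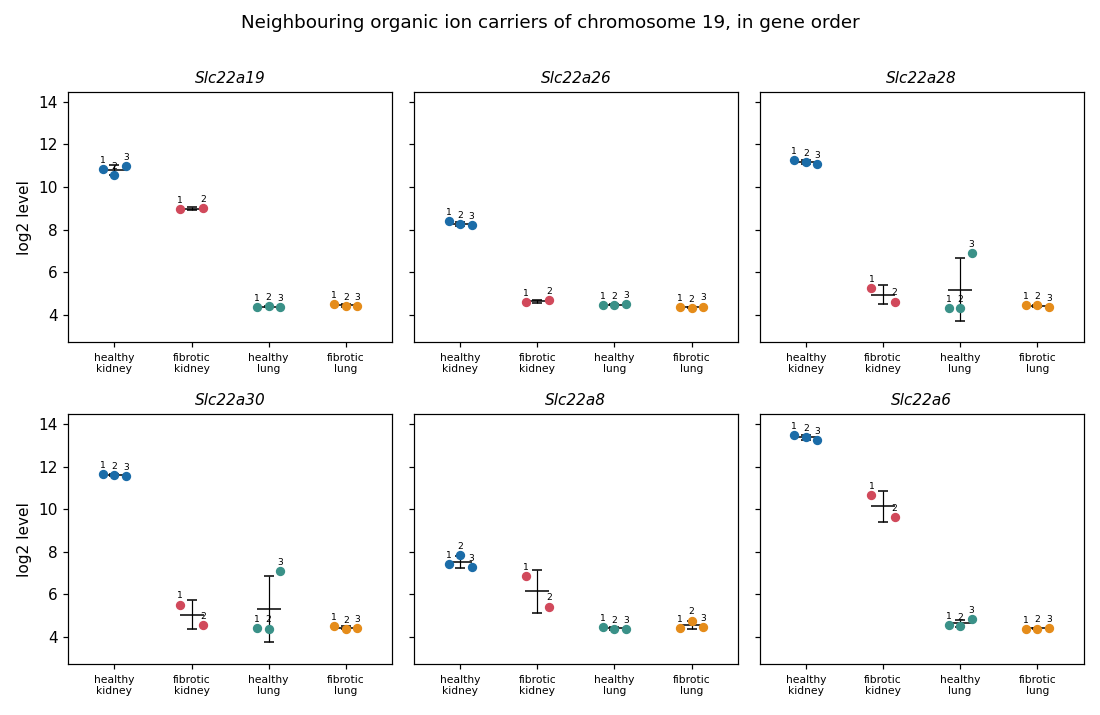
Levels (log2, vertical axis) of the 6 tested carriers of the chromosome 19 run on each array, by group; numbers are replicates, bars and whiskers the mean and SD. In each panel the 3 healthy kidneys lie above both fibrotic kidneys, and healthy lung 3 stands above the other lungs for Slc22a28 and Slc22a30.

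Outside that run, Slc22a22, a kidney carrier of prostaglandins in the mouse, was at 12.08, 12.05 and 12.09 in the healthy and 8.77 and 6.97 in the fibrotic kidneys, a change of -4.20 ± 0.45 (adjusted p = 7.82e-05). Slc22a12 (URAT1), the apical urate exchanger, went from 11.60, 11.91 and 11.68 to 9.91 and 8.06, a change of -2.74 ± 0.40 (adjusted p = 0.000505) that was -1.82 without fibrotic kidney 2. Slc22a2 (OCT2), which brings organic cations in from the blood, went from 10.49, 10.47 and 10.57 to 8.46 and 7.86 and fell by 2.35 on the log2 scale (SE 0.20, adjusted p = 2.62e-05). In all 3 the groups stood apart on every array, with fibrotic kidney 2 below fibrotic kidney 1.
Slc22a7 (OAT2), an organic anion carrier also strong in liver, went from 9.02, 8.99 and 8.84 to 6.93 and 7.17, a change of -1.90 ± 0.20 (adjusted p = 8.39e-05). Slc22a13 and Slc22a18, chosen after their values were seen, changed by -1.17 and -1.38, the second with -0.75 (adjusted p = 0.0718) without fibrotic kidney 2.
Slc22a4 (OCTN1), the ergothioneine carrier, went from 9.45, 8.94 and 9.42 to 8.55 and 7.32, a change of -1.34 ± 0.38 (adjusted p = 0.0185) that missed the threshold without fibrotic kidney 2 (-0.72, adjusted p = 0.194), healthy kidney 1 (adjusted p = 0.0553) or healthy kidney 3 (adjusted p = 0.0507). Its relative Slc22a5 (OCTN2), the carnitine carrier, was at 12.20, 12.17 and 12.19 in the healthy and 12.21 and 11.14 in the fibrotic kidneys on the brightest probe, a change of -0.51 ± 0.26 (adjusted p = 0.153); its other passing probes gave -3.23 and -0.92, so the probes of this gene disagree. The 1 family member that was higher was Slc22a15, at 4.55, 4.76 and 4.35 in the healthy and 5.37 and 4.99 in the fibrotic kidneys, with adjusted p = 0.0237. It was detected on 0 healthy and 1 fibrotic kidney, so no fold is given, and the call was lost without fibrotic kidney 1 (adjusted p = 0.151), healthy kidney 1 (adjusted p = 0.0559) or healthy kidney 3 (adjusted p = 0.0727).
Slc22a14, Slc22a17, Slc22a21 and Slc22a23 were not called in kidney.

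The apical uptake list, 18 tested, also holds Slc6a20b from outside the symbol rule. In the obstructed kidney 9 of the 18 were lower and 1 higher (15.6% and 23.2% of all genes), with a median change of -1.23. The carrier most typical of this membrane, Slc34a1, did not pass the test: it was at 15.12, 15.12 and 15.04 in the healthy and 14.55 and 13.39 in the fibrotic kidneys, a change of -1.12 ± 0.91 (adjusted p = 0.368). Its groups did not overlap. The SE takes in the lungs, where it was 6.62, 4.47 and 4.93 in the healthy and 7.70, 4.62 and 4.40 in the fibrotic ones, and the fit on the kidney arrays alone gave -1.12 with adjusted p = 0.0525. Slc34a3, the other renal phosphate carrier, was at 9.33, 9.88 and 9.07 in the healthy and 9.56 and 7.66 in the fibrotic kidneys, so fibrotic kidney 1 lay among the healthy kidneys, a change of -0.82 ± 0.44 (adjusted p = 0.168). It passed without fibrotic kidney 1, at -1.77 (adjusted p = 0.00118).

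Of the 10 sugar, vitamin and monocarboxylate carriers of the Slc5 family, 5 were lower and 0 higher (15.6% and 23.2% of all genes). Slc5a8, a sodium-coupled carrier of lactate and other monocarboxylates, went from 12.35, 12.24 and 12.26 to 11.01 and 9.39, a change of -2.08 ± 0.67 (adjusted p = 0.0316), which was -1.27 (adjusted p = 0.264) without fibrotic kidney 2 and had adjusted p of 0.064 to 0.0727 without any 1 healthy kidney. Its relative Slc5a12, chosen after its values were seen, went from 11.63, 11.55 and 11.54 to 10.48 and 9.53, a change of -1.57 ± 0.26 (adjusted p = 0.00096) that was called whichever array was left out. Its second, dimmer probe changed by -0.37.
Slc5a2 (SGLT2), which recovers most of the filtered glucose, was at 10.23, 10.37 and 9.67 in the healthy and 9.50 and 7.44 in the fibrotic kidneys. The change of -1.62 ± 0.46 (adjusted p = 0.0181) was -0.59 (adjusted p = 0.111) without fibrotic kidney 2 and -2.65 without fibrotic kidney 1, and missed the threshold without healthy kidney 1 (adjusted p = 0.0508) or 2 (adjusted p = 0.0557). Slc5a1 (SGLT1), the high-affinity glucose carrier farther along the tubule, was at 7.74, 7.74 and 7.98 in the healthy and 8.40 and 8.41 in the fibrotic kidneys, a difference of 0.59 ± 0.25 (adjusted p = 0.0934), with both fibrotic kidneys above all healthy ones. It was called once healthy lung 3 was left out of the fit (adjusted p = 0.0167).
Slc5a10 differed by -0.51 ± 0.21 (adjusted p = 0.0834) and the multivitamin carrier Slc5a6 by -0.60 ± 0.22 (adjusted p = 0.0568). The myo-inositol carrier Slc5a11, also chosen after its values were seen, changed by -1.07, by -0.43 (adjusted p = 0.166) without fibrotic kidney 2, by -1.71 without fibrotic kidney 1, and by -0.93 (adjusted p = 0.0633) without healthy kidney 2. The iodide carrier Slc5a5 and the mannose carrier Slc5a9 were not called.

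Among apical amino acid carriers, Slc6a19 (B0AT1), the main neutral amino acid carrier of the early tubule, went from 11.15, 10.78 and 10.64 to 10.19 and 8.25. The change was -1.64 ± 0.44 (adjusted p = 0.0138), -0.67 (adjusted p = 0.0787) without fibrotic kidney 2 and -2.60 without fibrotic kidney 1. Slc6a18, its relative farther along the tubule, was at 9.99, 9.73 and 9.56 in the healthy and 9.85 and 9.80 in the fibrotic kidneys, and the groups overlapped, a change of 0.06 ± 0.25 (adjusted p = 0.875). The neighbours Slc6a18 and Slc6a19, which lie next to each other on chromosome 13, thus gave different calls; the difference between them was not tested.
Cltrn (collectrin), which Slc6a19 needs to reach the apical membrane, was lower too, at 13.36, 13.26 and 13.40 in the healthy and 12.11 and 11.53 in the fibrotic kidneys, a change of -1.52 ± 0.50 (adjusted p = 0.0353). Slc6a15 (B0AT2), a carrier of branched-chain amino acids best known in brain, went from 9.11, 9.15 and 9.04 to 5.62 and 6.52, a change of -3.03 ± 0.29 (adjusted p = 4.95e-05), on a probe detected in every kidney; 2 dimmer probes gave 0.30 and -0.87.
Slc1a1, which recovers glutamate and aspartate, went from 11.85, 11.82 and 11.85 to 11.25 and 10.54, a change of -0.95 ± 0.20 (adjusted p = 0.0044) that was -0.59 without fibrotic kidney 2. Slc7a9, the cystine and basic amino acid exchanger, was at 11.01, 11.15 and 10.95 in the healthy and 11.76 and 10.47 in the fibrotic kidneys on its brightest probe, a change of 0.08 ± 0.35 (adjusted p = 0.888), while its other probes gave -1.82 and -0.73.

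Slc7a13 (AGT1), an aspartate and glutamate carrier of the straight proximal tubule, was at 7.41, 7.51 and 8.06 in the healthy kidneys and not above background in the fibrotic ones, at least 5.88-fold lower (adjusted p = 9.61e-06). Slc7a12 (asc-2), a small neutral amino acid carrier, rose from 6.08, 5.58 and 6.38 to 8.84 and 7.91, a change of 2.36 ± 0.29 (adjusted p = 0.000175). The groups did not overlap for either gene, and both calls were kept whichever array was left out. As background, Slc7a13 is known as a male-biased and Slc7a12 as a female-biased transcript of the mouse kidney. The fibrotic kidneys were the libraries with Xist (10.83 and 10.56) and without Eif2s3y (4.42 and 4.40), so obstruction and the sex of the libraries cannot be told apart in either value. The same holds for every other change in kidney given here.

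Of the 4 sulfate and dicarboxylate carriers of the Slc13 family, 1 was higher and 1 lower (23.2% and 15.6% of all genes). Slc13a1 (NaS1), the apical sulfate carrier, rose from 8.80, 8.50 and 8.45 to 10.84 and 10.50, a change of 2.09 ± 0.24 (adjusted p = 0.000135) that every omission of 1 array kept. Slc13a4 (NaS2), a second sulfate carrier, fell from 8.68, 8.50 and 8.07 to 6.86 and 5.66, a change of -2.15 ± 0.34 (adjusted p = 0.000791). The citrate carriers Slc13a2 and Slc13a3, of the apical and the basolateral membrane, did not overlap between the groups. Slc13a2 was at 10.78, 10.64 and 10.56 in the healthy and 10.35 and 8.28 in the fibrotic kidneys, and Slc13a3 at 11.26, 11.13 and 11.38 and, in the fibrotic, 11.05 and 9.15. Their changes of -1.34 ± 0.51 (adjusted p = 0.061) and -1.16 ± 0.42 (adjusted p = 0.0516) missed the threshold and passed it without fibrotic kidney 1, at -2.38 (adjusted p = 0.00143) and -2.11 (adjusted p = 0.000141); Slc13a3 also passed without healthy lung 3 (adjusted p = 0.0493).

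The basolateral list, 11 tested, had 4 lower (Slc22a2, Slc22a6, Slc22a7 and Slc22a8) and 1 higher (Slc2a1), with a median change of -1.16. Among all genes 15.6% were lower and 23.2% higher, and the 4 are the same genes as counted in the Slc22 family. Slc2a2 (GLUT2), the exit for reabsorbed glucose, was at 10.38, 10.30 and 9.75 in the healthy and 9.74 and 8.17 in the fibrotic kidneys, a change of -1.19 ± 0.93 (adjusted p = 0.346) on its brightest probe, while its other passing probes, detected on 5 and 4 arrays, changed by -3.28 and -3.24; with healthy lung 3 left out of the fit the same change had adjusted p = 0.0316. The amino acid exchangers Slc7a7 and Slc7a8 differed by -0.57 ± 0.26 (adjusted p = 0.11) and, on its brightest probe, 0.08 ± 0.40 (adjusted p = 0.909), and the urate carrier Slc2a9 by -0.30 ± 0.33 (adjusted p = 0.519). The second probe of Slc7a8, detected on all 11 arrays, changed by 0.90. The heavy chain of both exchangers, Slc3a2, was not above background in any kidney on its only passing probe. That probe was dim in every group (means of 4.87 to 5.88, detected on 5 arrays), so it does not show that the transcript is absent.

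Of 7 glucose facilitators of the Slc2 family tested, 4 were higher and 1 lower in the obstructed kidney (23.2% and 15.6% of all genes). Their median change was 0.56. Slc2a1 (GLUT1), the general glucose carrier, went from 10.23, 10.22 and 10.35 to 10.70 and 12.06, a change of 1.12 ± 0.33 (adjusted p = 0.0208). Without fibrotic kidney 2 it was 0.44 (adjusted p = 0.183) and without fibrotic kidney 1 it was 1.80; the call was also lost without healthy kidney 1 (adjusted p = 0.0527) or 2 (adjusted p = 0.0525). Slc2a3 (GLUT3), the high-affinity carrier of neurons and leukocytes, went from 5.91, 5.99 and 5.48 to 6.42 and 8.72, a change of 1.78 ± 0.52 (adjusted p = 0.0203), which was 0.63 (adjusted p = 0.148) without fibrotic kidney 2 and 2.93 without fibrotic kidney 1, and had adjusted p = 0.0582 without healthy kidney 3.
Slc2a6 (GLUT6), a carrier of inflammatory macrophages, went from 5.30, 4.53 and 5.24 to 6.57 and 8.11, a change of 2.32 ± 0.52 (adjusted p = 0.00547); it was detected on 1 healthy kidney, and gave 1.55 (adjusted p = 0.0626) without fibrotic kidney 2. Slc2a10, detected on 0 healthy and 1 fibrotic kidney, was at 4.64, 4.68 and 4.51 in the healthy and 4.89 and 5.45 in the fibrotic kidneys (adjusted p = 0.0437, no fold given), while its second probe changed by -0.23. The call was lost without fibrotic kidney 2 (adjusted p = 0.335), and also without any 1 healthy kidney, any 1 healthy lung or fibrotic lung 3. For all 4 the fibrotic kidneys lay above the healthy ones and replicate 2 was the higher.
Macrophage markers rose beside these genes, 7 of 7 detected in the fibrotic kidneys (summed level 12.33 and 12.40) and 4 or 5 in the healthy ones (9.82 to 10.19); their part in the result was not tested. The inositol carrier Slc2a13 was the 1 lower gene of the list; chosen after its values were seen, it changed by -0.85 and by -0.70 (adjusted p = 0.217) without fibrotic kidney 2, and the call was also lost without healthy kidney 1 or 3, fibrotic kidney 1 or any 1 healthy lung. The genes Slc2a4 (GLUT4) and Slc2a8 were not called.

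Slc34a2, the phosphate carrier of the lung, was higher in the obstructed kidney. No healthy kidney had it above background (4.55, 4.51 and 4.86), and it stood at 6.89 and 8.53 in the fibrotic ones, at least 5.24-fold higher (adjusted p = 0.000308), a call that was kept whichever array was left out. Lung transcripts were present in the same libraries: Sftpc stood at 9.22 and 7.75 in the fibrotic and 4.59, 4.57 and 4.38 in the healthy kidneys, Sftpd at 9.52 and 8.76 against 4.47, 4.49 and 4.43. Of the alveolar type 2 list, 4 of 6 were detected in both fibrotic kidneys and 1 of 6, Napsa, in the healthy ones. Slc34a2 was higher in fibrotic kidney 2 and Sftpc, Sftpd and Scgb1a1 were higher in fibrotic kidney 1; the part of lung transcripts in the rise was not tested.

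**Figure D5:**
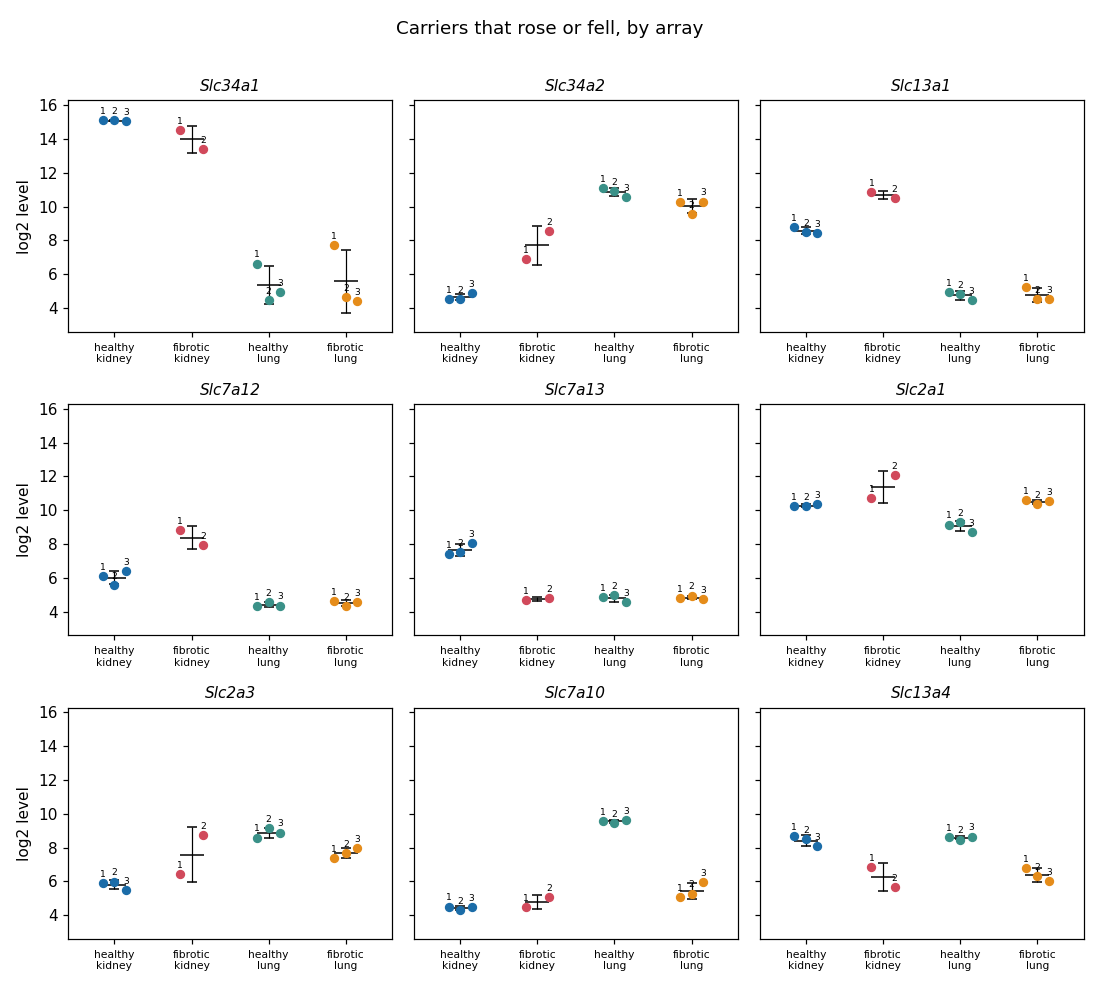
Levels (log2, vertical axis) of 9 carriers on each array, by group; numbers are replicates, bars and whiskers the mean and SD. Slc13a1 and Slc7a12 rise and Slc7a13 falls to background in the fibrotic kidneys, Slc2a1 rises and Slc13a4 falls in both organs, Slc7a10 falls in the fibrotic lungs, and the fibrotic kidneys spread widest for Slc2a3 and Slc34a2.

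Carriers that supply amino acids to growing and activated cells had 1 higher and 0 lower of 8 tested in the kidney. Neither share was above that of all genes (23.2% and 15.6%), and the list's median change was -0.10. The gene called was Slc7a6 (y+LAT2), an exchanger of basic and neutral amino acids, not above background in the healthy kidneys (4.59, 4.53 and 4.65) and at 5.48 and 6.54 in the fibrotic ones, at least 1.61-fold higher (adjusted p = 0.00792). Without fibrotic kidney 2 the adjusted p was 0.0843. Slc7a11 (xCT), which imports cystine for glutathione, was at 4.51, 4.43 and 4.63 in the healthy and 4.50 and 7.48 in the fibrotic kidneys, that is, on its brightest probe above background in fibrotic kidney 2 alone (adjusted p = 0.101, and 0.000212 without fibrotic kidney 1). Its second probe, detected on 7 arrays, changed by -0.57.

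The promoter window of Slc7a11 is shown because this gene was called higher in the fibrotic lungs on its brightest probe. Capitals mark the amino acid response core TGATGCAA, to which Atf4 is known to bind, on either strand.
Slc7a11 (chr3:50443564-50443863, minus strand): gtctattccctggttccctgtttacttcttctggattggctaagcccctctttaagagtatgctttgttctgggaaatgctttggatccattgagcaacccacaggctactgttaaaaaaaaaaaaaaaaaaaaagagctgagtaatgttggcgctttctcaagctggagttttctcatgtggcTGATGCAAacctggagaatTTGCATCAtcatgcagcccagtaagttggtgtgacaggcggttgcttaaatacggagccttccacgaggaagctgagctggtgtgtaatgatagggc
Its 2 matches begin at -66 and -47 and lie on opposite strands. The core stands in 0.895% of 32851 windows and in those of 3 of the 58 carriers with one, Slc1a4, Slc7a7 and Slc7a11. Of 12 other genes of the amino acid response, 6 were higher (Atf4, Ddit3, Trib3, Asns, Chac1 and Eif4ebp1) and 1 lower (Shmt2) in the obstructed kidney. Of all genes tested, 23.2% were higher and 15.6% lower there. Asns, which makes asparagine, went from 7.08, 7.03 and 7.09 to 8.43 and 9.96, a change of 2.13 ± 0.33 (adjusted p = 0.000749), and Trib3, a target of the same response, from 4.69, 5.03 and 5.25 to 6.26 and 8.10, a change of 2.19 ± 0.44 (adjusted p = 0.00316). Trib3 was detected on 1 healthy kidney, and fibrotic kidney 2 was the higher of the pair for both. In the fibrotic lung 2 of the 12 were higher (Psat1 and Phgdh, which make serine) and 1 lower (Atf5). Neither share was above that of all genes, 18.9% in each direction.

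Osmolyte carriers load the medulla's cells with compatible solutes against salt. The osmolyte list, not every gene of which is known for that role, had 5 genes tested. In the obstructed kidney 2 were lower (Slc5a3 and Slc5a11) and 0 higher, where 15.6% and 23.2% of all genes were. Slc5a3 (SMIT1), the inositol carrier, went from 6.60, 6.59 and 6.72 to 5.98 and 6.31, a change of -0.49 ± 0.15 (adjusted p = 0.0256), lost without fibrotic kidney 1 (-0.33, adjusted p = 0.153), healthy kidney 1 (adjusted p = 0.0522) or healthy kidney 3 (adjusted p = 0.0694). The betaine carrier Slc6a12 (BGT1) was at 7.41, 7.39 and 8.48 in the healthy and 6.12 and 6.70 in the fibrotic kidneys, a change of -1.35 ± 0.91 (adjusted p = 0.275); without healthy lung 3 it had adjusted p = 0.0187. The taurine carrier Slc6a6 and the creatine carrier Slc6a8 differed by 0.31 ± 0.17 (adjusted p = 0.187) and 0.18 ± 0.18 (adjusted p = 0.46). Nfat5, a factor known to drive osmolyte carriers under high salt, was higher, at 9.48, 9.27 and 9.92 in the healthy and 10.54 and 11.01 in the fibrotic kidneys, a change of 1.22 ± 0.22 (adjusted p = 0.00153).
Slc6a4, the serotonin carrier, was lower in the kidney at 6.53 and 5.50 against 7.16, 7.08 and 6.98, a change of -1.06 ± 0.26 (adjusted p = 0.00949), which did not hold without fibrotic kidney 2 (-0.54, adjusted p = 0.0721) or on its second probe (0.37).

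Of 5 organic ion efflux genes tested, which send the Slc22 substrates out of the cell, 3 were higher and 1 lower. Of all genes tested, 23.2% were higher and 15.6% lower in the obstructed kidney. Abcc3 rose from 4.87, 4.45 and 5.40 to 8.31 and 9.53, a change of 4.01 ± 0.36 (adjusted p = 3.03e-05), Abcc4 by 1.33 ± 0.18 (adjusted p = 0.000358) and Abcb1b by 1.80 ± 0.23 (adjusted p = 0.000238). Abcc3 was detected on 1 healthy kidney. Abcc2, an apical efflux pump, fell from 9.61, 9.22 and 9.24 to 7.92 and 6.94, a change of -1.93 ± 0.59 (adjusted p = 0.0243). Of 12 partners and regulators of tubule carriers, 2 were lower (Cltrn, above, and Kl, the coreceptor of the phosphate hormone FGF23, at -1.43 ± 0.37 (adjusted p = 0.0118)) and 0 higher. The share of lower genes in this list was close to that of all genes (15.6%). The tubule factor Hnf4a differed by -0.82 ± 0.78 (adjusted p = 0.444).

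In the fibrotic lung, Slc7a10 fell by 4.11 on the log2 scale. It was at 9.58, 9.43 and 9.61 in the healthy and 5.07, 5.28 and 5.93 in the fibrotic lungs, a change of -4.11 ± 0.23 (adjusted p = 6.96e-06), and no array of one group came near the other. Slc7a10 is known as a carrier of white adipocytes and neurons. Of 4 adipocyte markers 3 were lower beside it. The summed levels of the 4 were 8.93, 11.27 and 10.92 in the healthy lungs and between 6.72 and 8.15 in the fibrotic ones. Adipoq, the defining one, was at 7.75, 10.50 and 10.34 in the healthy and 4.94, 5.22 and 7.42 in the fibrotic lungs. All 3 red cell markers were lower too, from 3 of 3 detected in the healthy lungs (summed level 15.05 to 15.11) to 2 of 3 in the fibrotic ones (9.65 to 10.35). The part of either cell type in the result was not tested.

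Slc13a4 fell in the lung as in the kidney, from 8.62, 8.47 and 8.65 to 6.79, 6.31 and 6.00, a change of -2.21 ± 0.30 (adjusted p = 0.000438). Slc6a4, known in lung for clearing serotonin at the endothelium, went from 6.45, 6.58 and 6.85 to 5.52, 5.45 and 5.23, a change of -1.23 ± 0.23 (adjusted p = 0.00257), and its second probe from a mean of 6.15 to 4.83. Endothelial markers were 2 of 4 lower beside it (summed level 12.72 to 12.92 in the healthy and 11.80 to 12.35 in the fibrotic lungs); their part in the result was not tested. Slc22a5 went from 10.27, 10.24 and 10.02 to 8.66, 8.64 and 8.94, a change of -1.43 ± 0.23 (adjusted p = 0.00109); of its other probes, 1 gave -0.53 and 1 gave 0.35. The glycine carrier Slc6a9 changed by -0.94 ± 0.23 (adjusted p = 0.00915), Slc1a3 by -1.17 ± 0.28 (adjusted p = 0.00813), and Slc7a4, a relative of the cationic amino acid carriers, by -0.96 ± 0.22 (adjusted p = 0.0064). Each of these 7 calls, Slc7a10 included, was kept with any 1 array left out.
With healthy lung 3 and fibrotic lung 1 both left out, a choice made after seeing the data, Slc1a3 gave -1.06 (adjusted p = 0.0587). Slc22a7 changed by -0.70 ± 0.18 (adjusted p = 0.0131) and gave -0.56 (adjusted p = 0.0537) there. The other 4 falls were each lost with some single array left out: Slc1a4 -0.78, Slc2a8 -0.75, whose second probe gave 0.20, Slc22a14 and Slc22a23. The last was lost without any 1 healthy kidney or lung array, and Slc22a14 without any lung but healthy lung 1. Slc1a4 was also lost without healthy lung 1 or 2 (adjusted p = 0.0687 and 0.0626), and Slc2a8 without healthy kidney 1 or 2 or any 1 healthy lung (adjusted p of 0.05 to 0.123). Without fibrotic lung 3, the array with Xist, Slc1a4 gave -0.65 (adjusted p = 0.0747) and Slc2a8 -0.47 (adjusted p = 0.114).

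Of the 6 carriers that were higher in the fibrotic lung, Slc2a1 went from 9.15, 9.28 and 8.70 to 10.59, 10.38 and 10.52, a change of 1.45 ± 0.29 (adjusted p = 0.00338). Slc7a8 (LAT2), which exchanges neutral amino acids with its heavy chain partner, went from 5.79, 6.47 and 6.11 to 7.98, 7.13 and 8.03, a change of 1.59 ± 0.36 (adjusted p = 0.00631), with 0.93 on its second probe. Slc6a8, the creatine carrier, rose from 10.25, 10.25 and 10.02 to 11.00, 10.86 and 10.48, a change of 0.61 ± 0.16 (adjusted p = 0.0118). In all 3 the groups did not overlap and the call was kept with any 1 array left out, but Slc6a8 gave 0.42 (adjusted p = 0.126) with healthy lung 3 and fibrotic lung 1 both left out.
Slc7a11 went from 5.40, 5.20 and 4.98 to 7.18, 7.37 and 6.38, a change of 1.78 ± 0.58 (adjusted p = 0.035). Its groups did not overlap, and the adjusted p lay between 0.0653 and 0.113 when a lung was left out, except without fibrotic lung 3, where the call was kept. Its second, dimmer probe gave 0.24. The fit on the lung arrays alone gave the same change with adjusted p = 0.0031.
Slc22a4 was not above background in the healthy lungs and reached 5.82, 6.13 and 5.01 in the fibrotic ones, at least 1.6-fold higher (adjusted p = 0.0452), and lost the call without any 1 healthy kidney or any lung but fibrotic lung 3 (adjusted p of 0.0521 to 0.161). The urate carrier Slc2a9 changed by 0.86 ± 0.30 (adjusted p = 0.0439), from a mean of 4.89, close to background, to 5.74. Its probe was detected on 4 of the 6 lungs, and its second probe, detected on 3 arrays, changed by 0.015. The Slc2a9 call was lost without healthy kidney 2 or any lung but fibrotic lung 2 (adjusted p of 0.0582 to 0.146). Macrophage markers were 5 of 7 higher beside these rises, with summed levels of 14.07 to 14.14 in the healthy and 13.998 to 14.76 in the fibrotic lungs; their part in the result was not tested.

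Slc34a2 was at 11.08, 10.91 and 10.57 in the healthy and 10.28, 9.54 and 10.30 in the fibrotic lungs, and the groups did not overlap, a change of -0.82 ± 0.37 (adjusted p = 0.109); the fit on lungs alone gave adjusted p = 0.0382. Slc6a2 was at 9.37, 9.35 and 9.35 in the healthy and 10.09, 8.35 and 9.20 in the fibrotic lungs, with the fibrotic lungs on both sides of the healthy ones. Slc2a3 was at 8.59, 9.18 and 8.89 in the healthy and 7.39, 7.66 and 7.95 in the fibrotic lungs, a change of -1.22 ± 0.46 (adjusted p = 0.0614), and passed at adjusted p = 0.00176 without either fibrotic kidney and 0.00477 on the lungs alone. Slc6a12 was at 4.59, 4.58 and 8.16 in the healthy and 7.79, 7.91 and 6.88 in the fibrotic lungs: background in healthy lungs 1 and 2, high in healthy lung 3 with its liver transcripts, and high in all fibrotic lungs. Over all lungs the Slc6a12 change of 1.75 was not called, and the groups overlapped. The fit on the lung arrays alone gave adjusted p = 0.193. Only with healthy lung 3 left out was the rise called, at 2.94 (adjusted p = 0.000478). Slc34a1 was above background in healthy lung 1 (6.62) and fibrotic lung 1 (7.70), the second with kidney transcripts; their part was not tested.

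The test of the difference between the 2 organs' changes called 26 carriers, 7 with the more positive change in kidney and 19 in lung, 33.8% against 40% of all genes (23.9% and 16.2%). The 19 held 12 of the 19 Slc22 genes. Slc22a4, lower in the kidney and higher in the lung, was called in this test (adjusted p = 0.00528). Slc2a3 ran the other way with 3.00 ± 0.69 (adjusted p = 0.00664), as did Slc7a10 (adjusted p = 2.5e-05) and Slc34a2 (adjusted p = 0.000489). For these genes other than Slc2a3 a whole group was not above background, so the size of the difference is not exact. For 3 carriers called the same way in both organs the difference missed the threshold: it was -0.34 ± 0.44 (adjusted p = 0.572) for Slc2a1, 0.06 ± 0.46 (adjusted p = 0.929) for Slc13a4 and 0.17 ± 0.35 (adjusted p = 0.732) for Slc6a4, each with an SE that leaves room for unequal changes. Without fibrotic kidney 2 the difference for Slc2a1 was -1.02 (adjusted p = 0.0181). Slc22a7, lower in both organs, fell further in kidney (-1.20 ± 0.27 (adjusted p = 0.00614)).
Of the 77 carriers, 28 were called in neither fibrosis comparison.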

How the data were processed

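Total RNA was extracted with Trizol and labelled as biotinylated cRNA, per the labels' protocols, and read with GenomeStudio 5.0, per the submitters' processing notes. The deposited file of each array gives a raw intensity and a detection p-value for 45281 probes, as the authors exported them. The authors' processed intensities were a linear function of the raw ones to within rounding and served as an alternative.

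Raw intensities were background-corrected and quantile-normalised with neqc of limma 3.58.1 (R 4.3.3), an offset of 16 being added and negative controls inferred through the detection p-values. A probe was kept at detection p under 0.05 on at least 2 arrays (24396 kept). Of all probes, 34885 carried 1 gene symbol, 18 several and 10378 none in the platform annotation. Each gene was represented by the kept probe that was brightest on average across all 11 arrays. All 77 carriers matched a symbol in RefSeq's GRCm38.p6 table, from which gene order and promoters were taken.

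One limma model with 4 group means was fitted to 12865 genes, with Benjamini-Hochberg adjustment over all of them; the fit had 7 residual and 3.217 prior degrees of freedom and was tested on simulated data. Where no array of a group was above background, "at least" marks a bound: the bright group's mean over the dim group's mean, each dim array taken at the higher of its own value and its lowest detected signal. Named genes were the 10 largest rises and falls per fibrosis comparison among calls whose arrays do not overlap, the 5 largest differences either way in the other comparisons, the brightest member of each family in each group, and a list of carriers named whatever their values. The members and lists were chosen with earlier results of these data known. The titles pair healthy kidneys and lungs by mouse; deviations of same-mouse arrays from their group means correlated at -0.0699, 0.014 and -0.113. Alternatives changed the background correction, scaling, filter, probe choice, array weights and arrays included. The sources used here name neither slides nor scan dates.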

Additional observations from a re-analysis of the deposited data

Results flagged for a closer look

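Of 58 named carriers, 23 had changes that differed between the 2 organs. The test was limma's, of the kidney change minus the lung change (log2 ± SE, adjusted over all genes). Of all genes, 40% passed it, a share like that of the named carriers. The naming took in the 5 largest differences either way in this same test. The organic ion carriers of the chromosome 19 run had the lower change in kidney, with Slc22a26 at -3.53 ± 0.17 (adjusted p = 2.62e-06), Slc22a28 at -5.46 ± 0.84 (adjusted p = 0.00074), Slc22a30 at -5.69 ± 0.89 (adjusted p = 0.000828), Slc22a6 at -3.00 ± 0.34 (adjusted p = 0.000149) and Slc22a8 at -1.54 ± 0.46 (adjusted p = 0.0214). So had other Slc22 carriers, with Slc22a2 at -2.44 ± 0.27 (adjusted p = 0.000144), Slc22a12 at -2.65 ± 0.54 (adjusted p = 0.00334), Slc22a22 at -3.63 ± 0.60 (adjusted p = 0.00105) and Slc22a7 at -1.20 ± 0.27 (adjusted p = 0.00614). Slc22a4 was called in opposite directions in the 2 organs, at -2.31 ± 0.51 (adjusted p = 0.00528). Without fibrotic kidney 2, Slc22a8 gave -0.83 (adjusted p = 0.044), Slc22a12 -1.73 and Slc2a3 1.85, each still called.

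Among amino acid carriers, those with the lower change in kidney through a kidney fall were Slc1a1 at -0.82 ± 0.27 (adjusted p = 0.035), Slc6a15 at -2.47 ± 0.40 (adjusted p = 0.000904), Slc6a19 at -1.99 ± 0.59 (adjusted p = 0.0216) and Slc7a13 at -2.96 ± 0.28 (adjusted p = 6.32e-05). Slc7a7 at -1.21 ± 0.35 (adjusted p = 0.0194) was called in neither organ, and Slc7a8 at -1.52 ± 0.54 (adjusted p = 0.0466) was called in the lung alone. The Slc7a8 difference rests on its brightest probe: the second changed by 0.90 in kidney and 0.93 in lung. It was also lost in 8 of the 11 omissions of 1 array (adjusted p of 0.0504 to 0.197), with -0.82 without fibrotic kidney 2. The Slc1a1 difference was likewise lost in 8 (adjusted p of 0.0598 to 0.121), with -0.46 without fibrotic kidney 2. Without fibrotic kidney 2, Slc7a7 gave -0.79 (adjusted p = 0.0738) and Slc6a19 -1.02 (adjusted p = 0.0298), and Slc6a19 missed the threshold without healthy kidney 1 (adjusted p = 0.0503). With healthy lung 3 and fibrotic lung 1 both left out, Slc6a19 (adjusted p = 0.0629) and Slc1a3 (adjusted p = 0.0512) missed it. A more positive change in kidney with a kidney call was seen for Slc7a12 at 2.26 ± 0.39 (adjusted p = 0.00134), Slc13a1 at 2.07 ± 0.33 (adjusted p = 0.000882), Slc34a2 at 3.89 ± 0.56 (adjusted p = 0.000489) and Slc2a3 at 3.00 ± 0.69 (adjusted p = 0.00664). For Slc1a3 at 1.53 ± 0.42 (adjusted p = 0.0148), Slc7a4 at 1.42 ± 0.33 (adjusted p = 0.00631) and Slc7a10 at 4.45 ± 0.34 (adjusted p = 2.5e-05) the call was a fall in the lung. Where a whole group was not above background its arrays entered at their measured levels, so the difference is no exact size: this holds for Slc7a13 and Slc22a26 (fibrotic kidneys and all lungs), Slc22a28 and Slc22a30 (fibrotic lungs), Slc7a12, Slc22a2, Slc22a6, Slc22a8 and Slc22a12 (all lungs), Slc6a19, Slc13a1 and Slc22a4 (healthy lungs), Slc34a2 (healthy kidneys) and Slc7a10 (all kidneys). In kidney these differences also follow the sex-linked transcripts of the libraries, and the 2 cannot be told apart.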

How the results depend on the processing

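Under 23 other settings, 58 named members gave 4632 values, of which 4282 stayed on their side of the threshold, 185 lost a call and 162 gained one. The other 3 changed sign with a call in the main fit or in the other setting. Changes of sign without a call in either are counted among the 4282. The number of kidney carriers higher was 5 on the authors' processed intensities. The number of lung carriers higher was 12 with a common median, 19 on the authors' intensities, 3 with no filter on dim probes and 12 with array weights, and the number lower was 6 with a common median and 4 on the authors' intensities. For the difference between the organs' changes, the authors' intensities gave 42 with the lower change in kidney. With 1 array left out, and with healthy lung 3 and fibrotic lung 1 both left out, kidney counts ran from 5 to 9 higher and 18 to 30 lower, lung counts from 3 to 9 and 8 to 15, counts for the difference from 7 to 10 and 16 to 28, and those between healthy organs from 45 to 48 and 11 to 14. Taking the mean of all probes turned Slc7a9 in kidney to -0.82 (adjusted p = 0.0414) and the difference between organs for Slc22a5 to -1.02 (adjusted p = 0.0161), and the authors' intensities turned Slc1a5 between healthy organs to 0.023 (adjusted p = 0.922); the cause was not tested. With mouse as a replicate block in the 6 healthy arrays, 47 carriers were higher in kidney and 14 in lung, against 47 and 13 without the block. Probes near background limit what can be seen for the 40 carriers detected on only some arrays of an organ.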
